A study of Mus musculus with 54 samples.

Results

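The cytosolic ribosomal protein genes code for the protein part of the ribosome that works in the cytoplasm. They were taken as the protein-coding genes whose symbol starts with Rpl or Rps followed by a digit, without the S6 kinases and without symbols ending in -ps, together with Rplp0, Rplp1, Rplp2 and Rpsa. The rule gave 86 genes of the 39179 genes listed. Of these, 52 code for proteins of the large subunit or close copies of them and 33 for proteins of the small subunit or close copies. The last, Rps19bp1, matches by symbol but codes for a protein that binds RPS19 and is not part of the ribosome. Fau and Rack1 also contribute proteins to the ribosome, lie outside the rule and are given only for comparison.

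RNA-seq was performed on thioglycolate-elicited peritoneal macrophages of C57BL/6 mice, that is, cells drawn to the peritoneum by an irritant, in 15 conditions and 54 libraries. In the polarization experiment (reads of 50 bases), cells of 3 mice were left non-polarized (M0), were polarized for 24 h with IFNγ (50 ng/ml) and LPS (100 ng/ml) to become M1-like, or with IL-4 (10 ng/ml) to become M2-like, and each mouse and condition gave 2 libraries, which were summed. In the reprogramming experiment (paired reads of 150 bases, 3 libraries a condition), M0, M1-like and M2-like cells were left untransfected or were mock transfected, and M2-like cells received, for 48 h, a negative siRNA pool, an siRNA pool against E2f1, Myc, Pparg or Stat6, or the pools against all 4 factors together, the last named iM1. No genotype was altered in any group, and each knockdown left part of its target's mRNA. For the reprogramming experiment the study's methods speak of biological replicates of M0, M1-like, M2-like and iM1 cells in their section on RNA extraction and qPCR, but neither they nor the labels say that the sequenced libraries of one condition came from separate animals. Their p-values measure the spread between these libraries, which may be in part technical.

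Each ribosomal subunit holds a fixed set of proteins in single copy around its rRNA, so the cell needs them in matched amounts. Their mRNAs are short and abundant, begin with a run of pyrimidines (the 5′ TOP motif) through which mTOR and LARP1 set how strongly they are translated, and their genes, with those for rRNA synthesis and ribosome assembly, are textbook targets of MYC. Because these mRNAs are so abundant in the germ line, the mouse genome carries many processed pseudogenes copied from them, and these bear on every count below.

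The first 120 coding bases of Rps16, a small subunit protein, and of Rpl10a, the member with the largest change, are shown because they do not tell the gene from its copy, with the bases that meet at exon junctions in capitals. Each differs at 0 of 120 bases from its main pseudogene, Rps16-ps2 at chr5:129128077-129128517 and Rpl10a-ps1 at chr1:64993951-64994604.
Rps16 first coding bases: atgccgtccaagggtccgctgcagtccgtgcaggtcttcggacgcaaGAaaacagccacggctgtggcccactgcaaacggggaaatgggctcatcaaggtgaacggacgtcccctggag
Rpl10a first coding bases: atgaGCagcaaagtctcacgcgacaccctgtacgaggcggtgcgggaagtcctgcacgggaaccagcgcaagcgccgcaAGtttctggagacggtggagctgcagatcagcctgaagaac
Rps16 lies at chr7:28350652-28353155 and Rpl10a at chr17:28328471-28331033, both on the plus strand (GRCm38).

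The reads of most members were split between the gene and such copies. By sequence, 894 annotated pseudogenes were assigned to 80 members, and the median member shared 55.5% of its 50-base words with other annotated transcripts. CPM are reads scaled to library size, in this paragraph without the factors from the trimmed mean of M-values (TMM) used elsewhere except where stated. In the polarization experiment the members summed to 7778 CPM and their pseudogenes to 12436 CPM. In the reprogramming experiment the sums were 6309 and 11232 CPM. The median member kept 31.0% of its reads on its own row in the polarization experiment and 10.2% in the reprogramming experiment, where 43 members kept under 10%, against 4 members in the polarization experiment. The pseudogene reads also lay differently. A single pseudogene held a median of 47.5% of them over 77 members in the polarization experiment and 90.9% over 64 members in the reprogramming experiment. Rps16 itself had 1.55 CPM in the reprogramming experiment and Rps16-ps2 387 CPM. How reads that map to several places were counted is not given in the sources used here, so each comparison below is given first on the gene rows as deposited and then, where it differs, with the assigned pseudogene rows added to the gene. The second count was chosen after the data had been seen.

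**Figure D1:**
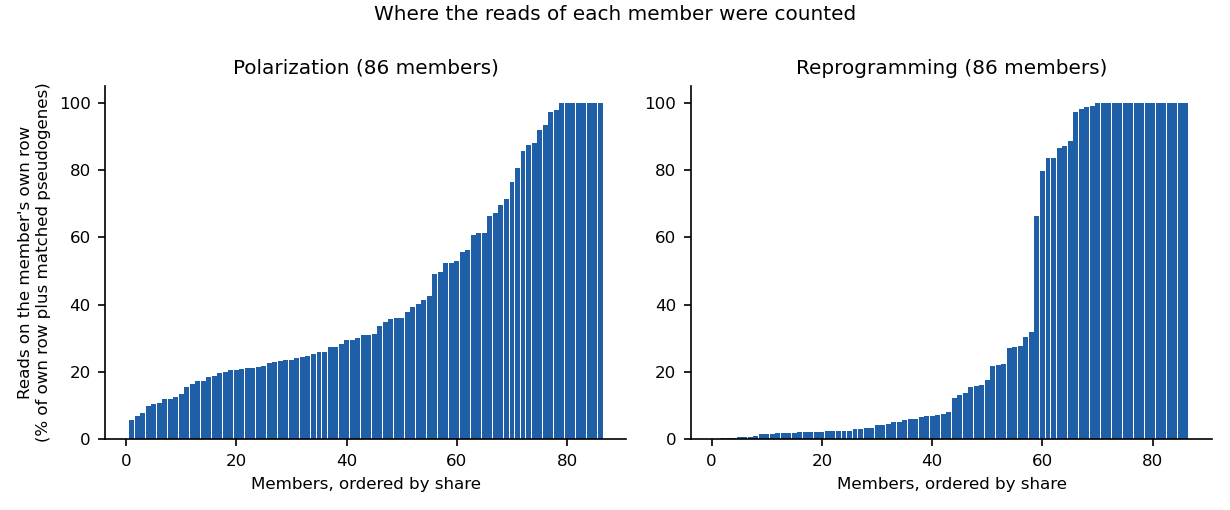
Share of reads on each member's own row, in percent of the own row plus its matched pseudogene rows, with members ordered from lowest to highest in the polarization (left) and reprogramming (right) experiments. The median is 31.0% on the left and 10.2% on the right, where 43 members lie under 10%.

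Per kilobase of transcript, levels differed widely between members. On own rows in the polarization experiment, Rpl8 (438 CPM per kb) and Rplp1 (417 CPM per kb) were highest. Rpl39l (0.513 CPM per kb), Rpl3l (0.0247 CPM per kb) and Rpl10l (0.00217 CPM per kb) were lowest, and these 3 are the copies known from testis or striated muscle. In the reprogramming experiment Rps27rt (1199 CPM per kb), Rps9 (767 CPM per kb) and Rpl8 (656 CPM per kb) led, and Rpl35 (0.650 CPM per kb), Rpl3l (0.161 CPM per kb) and Rpl10l (0 CPM) closed the order. With pseudogenes added, Rps12 (795 CPM per kb) led in the first experiment, so the order among the top members rests on how reads were counted.

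Rps27 and its retrotransposed protein-coding copy Rps27rt show the same split between members. Rps27 shares 98.6% and Rps27rt 91.1% of its 50-base words with other transcripts. Without TMM scaling, Rps27 had 25.8 CPM and Rps27rt 84.1 CPM over the polarization samples, and the pair had 1.38 and 448 CPM over the reprogramming samples. The row named Rps27 thus holds a small part of the family's reads in the second experiment.

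Series-wide, the mouse libraries of the polarization experiment held 19714994 to 29880494 counted reads each and those of the reprogramming experiment 13421854 to 19704195. Summed over 5 macrophage markers (Adgre1, Cd68, Csf1r, Itgam, Lyz2), the M1-like samples had 9524 to 10439 CPM and the others 12599 to 17245 CPM in the polarization experiment, and 6041 to 7617 CPM and 11320 to 18088 CPM in the reprogramming experiment. In the latter, the markers of mesothelium and fibroblasts summed to 6.25 to 25.9 CPM in the M1-like groups and 33.7 to 172 CPM in all others, and those of B cells to 0.672 to 2.36 CPM and 6.01 to 33.2 CPM. The macrophage markers did not move alike. In the polarization experiment Lyz2, which made up most of their sum, averaged 12215 CPM in M0 and 6162 CPM in M1-like samples. Cd68 and Itgam were also lower, Csf1r averaged 919 and 900 CPM, and Adgre1 rose from 422 to 1459 CPM. The part of these differences in the results was not tested. T cell markers summed to at most 5.16 CPM in any sample. In RNA from bulk cultures, fewer cells of a type and less RNA per cell cannot be told apart.

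In M1-like macrophages at 24 h, ribosomal protein mRNAs were lower nearly throughout. Of 84 members tested against M0, 73 fell and 5 rose (edgeR's quasi-likelihood test, Benjamini-Hochberg adjusted p under 0.05), while 37.5% of all 16110 genes tested fell and 35.4% rose. Both subunits moved alike, with 43 of 50 large and 30 of 33 small subunit members lower. The median log2 fold change was -0.58 over the members and -0.04 over all genes tested. In 76 members all 3 M1-like values lay below all 3 M0 values. The members took 0.953%, 0.925% and 0.929% of the counted reads of the 3 M0 samples, 0.436%, 0.511% and 0.490% of the M1-like samples and 0.853%, 0.946% and 0.959% of the M2-like samples. The M1-like samples were the low ones, with no overlap with the others. TMM scaling factors were 0.809 to 0.836 in M1-like and 1.09 to 1.11 in M0 samples, and without them every difference would be 0.43 lower on the log2 scale, with medians of -1.01 for the members and -0.47 for all genes.

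**Figure D2:**
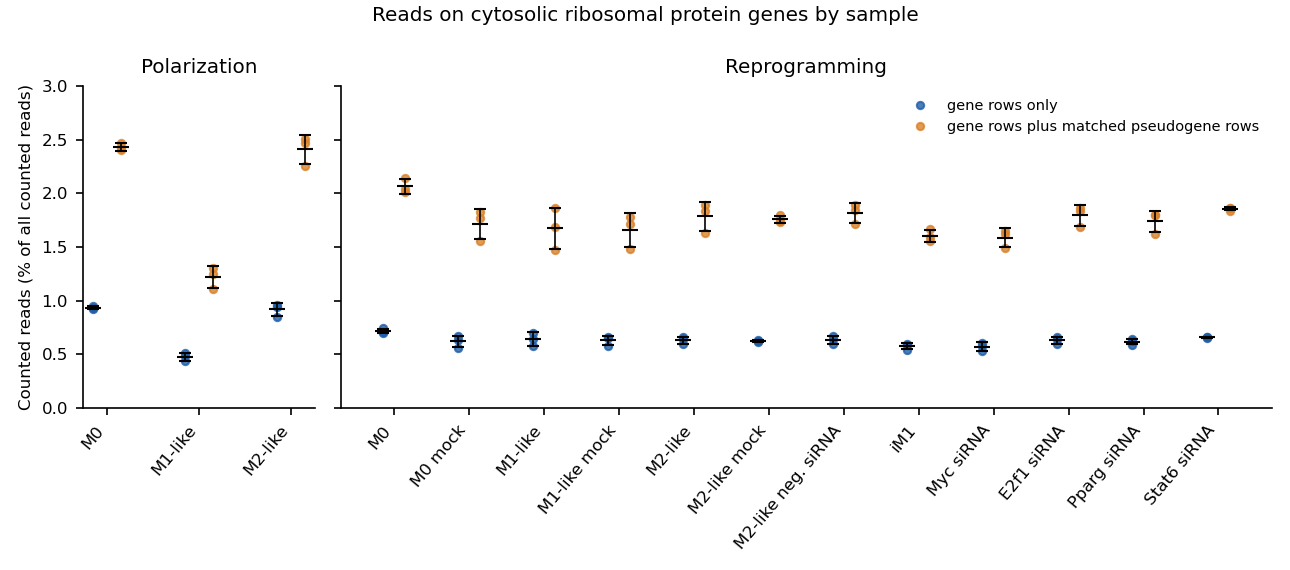
Percent of counted reads on the members' own rows and on those rows plus matched pseudogenes, 1 point per sample, by condition in the polarization and reprogramming experiments. In the polarization experiment the M1-like samples lie at 0.436 to 0.511% on own rows, below M0 (0.925 to 0.953%) and M2-like (0.853 to 0.959%).

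The plot of read shares by sample shows this drop as the widest between conditions, on own rows and with pseudogenes added alike (2.43% ± 0.035 in M0 and 1.22% ± 0.10 in M1-like, SD, n = 3 mice).

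Rpl10a, a large subunit protein of the stalk beside the E site, fell the most. It had 105, 107 and 106 CPM in M0, 16.2, 19.4 and 22.0 CPM in M1-like and 106, 112 and 116 CPM in M2-like samples. Between M0 and M1-like this was a log2 fold change of -2.46 (SE 0.09, adjusted p = 2.26e-10, edgeR's quasi-likelihood test). Rpl3, which lies close to the peptidyl transferase centre, followed with 132, 128 and 129 CPM in M0 and 37.7, 40.1 and 39.6 CPM in M1-like samples, a log2 fold change of -1.72 (SE 0.06, adjusted p = 6.00e-11). In both genes the 3 M1-like mice stood far below all others, and the fall was several times that of the median member. With pseudogenes added the log2 fold changes were -2.57 and -1.80.

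Members with defined roles at the ribosome's surface also fell. The P stalk, the protein arm that recruits elongation factors, was lower in all its members, with log2 fold changes of -0.32 for Rplp0, -0.66 for Rplp1 and -0.62 for Rplp2. Rpsa, which doubles as a laminin receptor, had 128, 116 and 121 CPM in M0 and 57.6, 62.8 and 61.1 CPM in M1-like samples (log2 fold change -1.01, SE 0.09). Rpl5 and Rpl11, which bind 5S rRNA and restrain MDM2 when free, fell by 0.78 and 0.55 on the log2 scale. Rps6, the substrate of S6 kinase, fell by 0.51, and Rps3, which also takes part in DNA repair, fell by 0.27.

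Rps27a, made as a fusion with ubiquitin, fell by 0.71 on the log2 scale (adjusted p = 2.21e-06). Fau, a fusion with a ubiquitin-like protein that lies outside the rule, had 98.2 ± 5.65 CPM in M0 and 95.8 ± 7.11 CPM in M1-like samples (SD, n = 3 mice). Rack1, the scaffold protein of the small subunit, had 630 ± 28.4 CPM in M0 and 403 ± 23.8 CPM in M1-like samples.

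Only 5 members rose in M1-like macrophages. They were Rpl24 (log2 fold change 0.64, SE 0.09), Rps19bp1 (0.56, SE 0.10), Rps24 (0.42, SE 0.08), Rps27l (0.40, SE 0.06) and Rpl7l1 (0.20, SE 0.05). Without TMM factors Rps24, Rps27l and Rpl7l1 would be at -0.01, -0.03 and -0.23. Rpl24 had 6.26, 6.42 and 5.72 CPM in M0 and 8.54, 10.1 and 10.1 CPM in M1-like samples on its own row, which holds 6.74% of its family's reads, and with pseudogenes added it was higher by 0.52. Rps24 had 94.0, 91.2 and 95.4 CPM in M0 and 110, 134 and 131 CPM in M1-like samples. In each of the 5 the M0 and M1-like samples did not overlap.

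**Figure D3:**
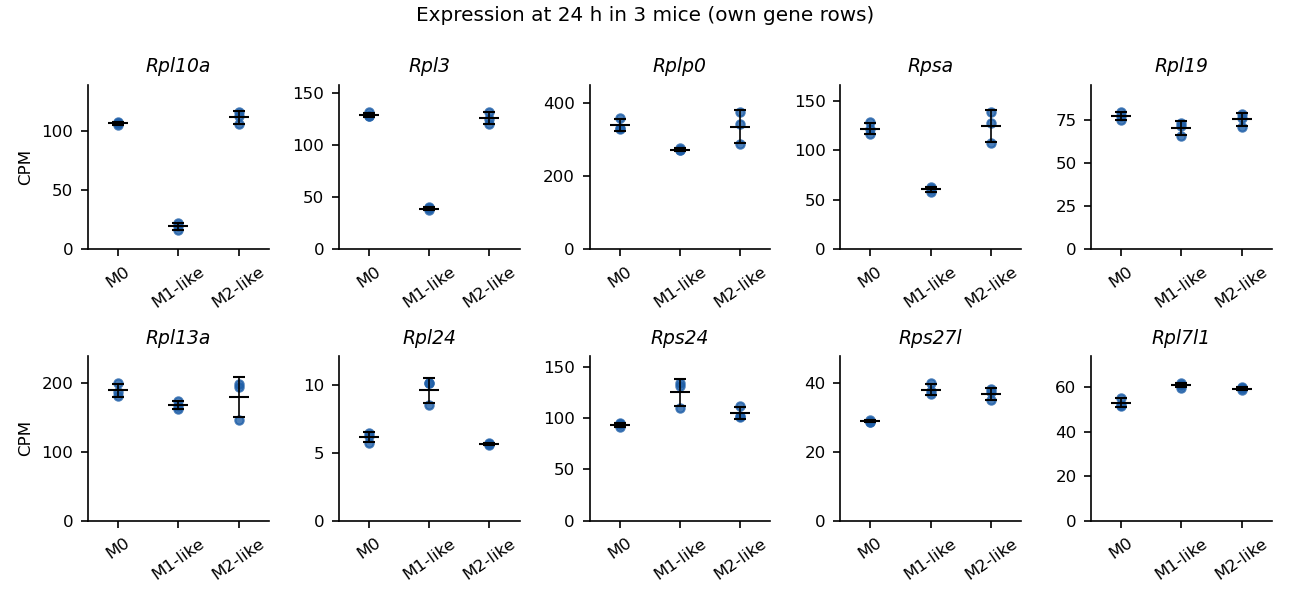
CPM (TMM scaled, own gene rows) of 10 members in M0, M1-like and M2-like macrophages at 24 h, 1 point per mouse, each axis starting at 0. Rpl10a and Rpl3 show the deepest drops in M1-like samples, Rpl19 and Rpl13a lie close together in all conditions, and Rpl24, Rps24, Rps27l and Rpl7l1 are higher in M1-like than in M0 samples.

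The plot of single genes by mouse also shows members that passed in neither direction. Rpl19 was at 79.5, 77.2 and 74.6 CPM in M0 and at 65.6, 71.6 and 73.1 CPM in M1-like samples (log2 fold change -0.14, adjusted p = 0.0616). Rpl13a, known to leave the ribosome under interferon γ and to silence inflammatory mRNAs, had 199, 187 and 181 CPM in M0 and 162, 174 and 167 CPM in M1-like samples (log2 fold change -0.17, adjusted p = 0.134). In both, all M1-like values lay below all M0 values by a small margin. The other tested members without a call were Rpl29 (-0.08), Rpl41 (-0.17), Rps20 (-0.14) and Rpl39l (-0.76 at under 1 CPM).

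Paralogs were followed as pairs. Rpl22, a large subunit protein that binds RNA, fell by 0.51 on the log2 scale in M1-like cells, and its copy Rpl22l1, at 14.4, 14.3 and 18.3 CPM in M0 and 6.65, 8.84 and 7.43 CPM in M1-like samples, fell by 1.04. Rps27 fell by 0.46 and Rps27rt by 0.50 while Rps27l, induced by p53 in many cells, rose. Rpl7 fell by 0.49 while Rpl7l1, which works in pre-rRNA processing, rose, and Rpl36a and Rpl36al fell by 0.81 and 0.36. Rps4x fell by 0.70, and Rps4l, which the annotation does not list as protein-coding, had 4.97 ± 0.261 CPM in M0 and 5.16 ± 0.378 CPM in M1-like samples (SD, n = 3).

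Few shared words did not always keep reads on the own row, which held 97.2% for Rps3 but 27.4% for Rpl39 and 31.0% for Rps24. Of the 13 members that share under 20% of their 50-base words, 11 were tested in M1-like against M0 macrophages. Of these 5 fell and 4 rose, with a median of -0.27. Among them Rpl8, Rpl4, Rps3 and Rpl39 fell, and Rps19bp1, Rps27l, Rpl7l1 and Rps24 rose. The 2487 genes tested with exons summing to under 1 kb, members included, had a median of -0.15 in the same comparison. Over the short genes kept as non-members the median was 0.098. With pseudogenes added, 74 members fell and 5 rose.

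With IL-4 few members changed at 24 h. Of 84 members, 4 rose and 1 fell in M2-like against M0 macrophages, a share under the 27.9% of all genes that changed in either direction, and the median was -0.02. Rpl22l1 rose from 14.4, 14.3 and 18.3 CPM to 29.2, 19.9 and 21.4 CPM (log2 fold change 0.58, SE 0.15, adjusted p = 0.0135). Rpl36al (0.41), Rps27l (0.35) and Rpl7l1 (0.17) rose as well, so all 4 members that rose are copies of another ribosomal protein gene. Rpl37a, a large subunit zinc finger protein, fell by 0.35. Without M0 mouse 1 or 2 the calls dropped from 5 to 2, and with pseudogenes added 5 members passed, or 9 with the mouse as a block.

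Set against M2-like macrophages, M1-like macrophages had 73 members lower and 3 higher, with 38.1% of all genes lower and 34.6% higher, and a median of -0.53. The largest differences were again Rpl10a (-2.53), Rpl3 (-1.69) and Rpl22l1 (-1.62) downward and Rpl24 (0.77), Rps19bp1 (0.45) and Rps24 (0.25, or -0.19 without TMM factors) upward. This comparison shares its M1-like samples with the one against M0.

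Other genes that work with the ribosome were counted by list in M1-like macrophages of the polarization experiment, beside the 37.5% of all genes that fell and the 35.4% that rose against M0. Of 22 translation factors and other genes with 5′ TOP mRNAs, 17 fell and 2 rose at 24 h (median -0.44). Eef1a1, the main elongation factor, went from 2415 ± 56.0 to 743 ± 128 CPM (SD, n = 3). Of 22 ribosome assembly and rRNA synthesis factors, 15 fell and 1 rose (median -0.46). Of 76 mitochondrial ribosomal protein genes 27 rose, a share close to that over all genes, and 11 fell (median 0.07, beside -0.04 over all genes). Of 13 regulators of TOP mRNA translation, 6 rose and 2 fell. Myc had 9.52, 8.93 and 9.03 CPM in M0, 0.513, 0.664 and 0.728 CPM in M1-like and 18.7, 18.6 and 19.98 CPM in M2-like samples. In M2-like macrophages 16 of the 22 assembly factors and 32 of the 76 mitochondrial ribosomal protein genes rose against M0 and none of either list fell, with medians of 0.36 and 0.20 beside -0.02 over the cytosolic members, while 27.9% of all genes changed in either direction.

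In the reprogramming experiment the direction of the M1-like difference depended on how copies were counted. On own rows, 26 members were higher and 16 lower in untransfected M1-like than in M0 macrophages, with 29.0% of all 14172 genes higher and 28.7% lower, and the median was 0.09. With pseudogenes added, 53 members were lower and 5 higher, with 28.8% of genes lower and 29.0% higher, and the median was -0.36. Rpl34, a large subunit protein, had 1.76, 2.42 and 2.32 CPM in M0 and 12.1, 5.96 and 7.32 CPM in M1-like libraries on its own row (log2 fold change 1.96). With pseudogenes it had 201, 183 and 236 CPM in M0 and 168, 118 and 156 CPM in M1-like libraries (-0.49). The groups did not overlap either time but lay in opposite order, and over all libraries 1.82% of the reads of its family were on its own row.

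Members chosen because most of their reads stay on their own row give close values under both counts by construction. Of the 25 tested with at least 80% of reads on their own row, 9 were lower and 5 higher in M1-like than in M0 libraries (median -0.13). The 5 include Rps27, since this share counts pseudogenes and not the protein-coding copy Rps27rt, which held nearly all reads of the pair. Rps9, which lines the mRNA entry channel of the small subunit, had 653, 669 and 648 CPM in M0 and 461, 402 and 441 CPM in M1-like libraries (log2 fold change -0.60, adjusted p = 1.51e-08). Rpl8 fell by 0.30. Rpl4, with 680 ± 21.04 CPM in M0 and 689 ± 105 CPM in M1-like libraries, passed in neither direction.

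Rpl10a again fell the most on own rows, with 35.6, 40.0 and 39.9 CPM in M0 and 11.9, 16.5 and 13.4 CPM in M1-like libraries on its own row (log2 fold change -1.47, SE 0.11, adjusted p = 4.70e-13). With pseudogenes it had 314, 342 and 335 CPM in M0 and 150, 135 and 151 CPM in M1-like libraries (-1.19). Rps4x fell by 0.87 on its own row and by 0.87 with pseudogenes added. Rpl3 fell by 0.56. Rps27l rose from 73.1, 69.5 and 70.0 to 102, 88.9 and 95.1 CPM (0.43), and Rpl22l1 rose from 2.42, 2.85 and 4.23 to 10.9, 6.29 and 6.56 CPM (1.32), the reverse of its change at 24 h in the polarization experiment.

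The remaining largest increases on own rows, Rpl37 (1.80) and Rps27 (1.60), came from rows of under 5 CPM. Rpl37 was at -0.51 with pseudogenes added. Rps27 kept its rise (1.56), while Rps27rt, with 99% or more of the pair's reads, had 542 ± 28.9 CPM in M0 and 449 ± 67.5 CPM in M1-like libraries (-0.27, adjusted p = 0.0894). The P stalk gave -0.01 for Rplp0, -0.19 for Rplp1 and 0.68 for Rplp2, of which Rplp2 alone passed.

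**Figure D4:**
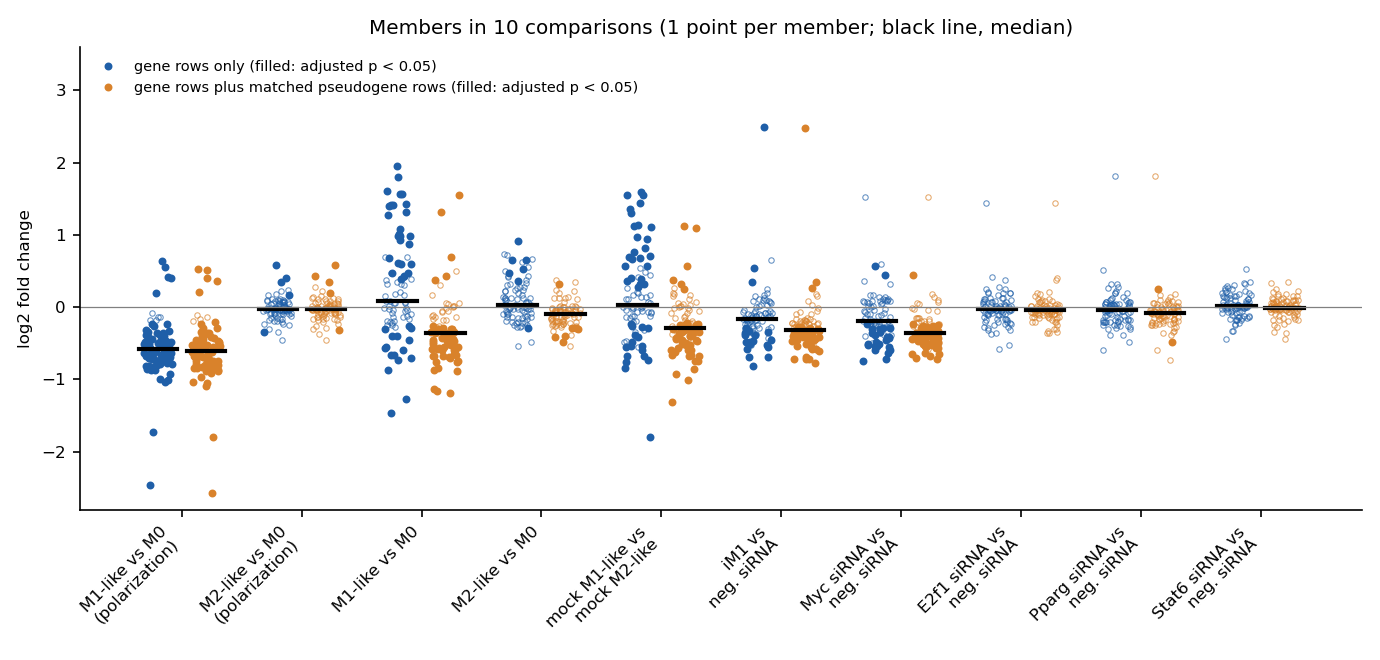
log2 fold change of each member (1 point per member, median as a black line) in 10 comparisons, on own gene rows and with matched pseudogene rows added, filled points with adjusted p under 0.05. The median of untransfected M1-like against M0 moves from 0.09 to -0.36 and that of Myc knockdown against the negative siRNA pool from -0.19 to -0.35, while the polarization medians (-0.58 and -0.02 on own rows) hardly move.

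Against untransfected M2-like macrophages, M1-like macrophages had 19 members higher and 14 lower on own rows (31.3% and 30.2% of all genes), and 5 higher and 40 lower with pseudogenes added (31.5% and 30.4% of genes, median -0.29). The mock-transfected cells gave close counts. Mock M1-like against mock M0 had 20 members higher and 15 lower on own rows (30.3% and 30.0% of genes) and 8 higher and 36 lower with pseudogenes added (30.6% and 30.2%). Mock M1-like against mock M2-like had 26 higher and 17 lower on own rows (30.9% and 29.8%) and 7 higher and 47 lower with pseudogenes added (31.1% and 29.9%). The excess of lower members with pseudogenes added depended on the scaling. Scaled by total counts in place of TMM, 42 members lay above 0 and 42 below in mock M1-like against mock M0. The same counts were 33 and 51 against mock M2-like. Among untransfected cells they were 33 and 51 against M2-like and 18 and 66 against M0. Without mock M1-like library 2 the members lower with pseudogenes added went from 36 to 21 and from 47 to 27 against mock M0 and mock M2-like. Rpl10a led the decreases in each of these comparisons, at -2.13, -1.86 and -1.80 on own rows. Rpl3l had 0.381, 0.295 and 0.580 CPM in mock M1-like, 0, 0.0537 and 0 CPM in mock M0 and 0, 0 and 0.0697 CPM in mock M2-like libraries, and its fitted fold depends on the prior count. Rpl34 (1.53 and 1.56) and Rps12 (1.44 and 1.60) led the other increases on own rows against mock M0 and mock M2-like, and lay at -0.16, -0.33, -0.19 and -0.24 with pseudogenes added. The plot of log2 fold changes over 10 comparisons shows these medians beside each other.

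Between M2-like and M0 macrophages few members passed in this experiment too. Untransfected, 6 members were higher and 1 lower on own rows (10.7% and 9.19% of genes), and 1 higher and 6 lower with pseudogenes added (10.8% and 9.33%). Without M2-like library 2, 1 member passed with pseudogenes added. Rpl10a rose by 0.66 on its own row (SE 0.10) and Rps27l fell by 0.29. Between the mock-transfected groups 0 of 84 members passed by edgeR's quasi-likelihood test and 0 by DESeq2, with 5 at an unadjusted p under 0.05 and 3.83% of all genes called.

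Mock-transfected cells were also set against untransfected cells. By the study's methods, cells without transfection were sequenced 24 h after polarization and transfected cells 48 h after transfection, so the transfection reagent and the longer culture cannot be told apart in these comparisons. In M0, mock against untransfected M0 had 9 members higher and 2 lower on own rows (11.7% and 8.66% of genes), and 0 higher and 11 lower with pseudogenes added (11.8% and 8.90%, median -0.18), or 2 lower without mock M0 library 2. The own-row increases were led by Rpl38 (1.79), Rpl35 (1.44) and Rps15a (0.93), all on rows averaging under 10 CPM, and at -0.39, -0.05 and -0.31 with pseudogenes added. Among the decreases was Rpsa (-0.33). In M1-like cells 0 members passed by edgeR or DESeq2, with 0 at an unadjusted p under 0.05 (0% of genes called), and in M2-like cells 0 passed by either tool, with 3 at an unadjusted p under 0.05 (1.77% of genes). The negative siRNA pool against mock M2-like gave 1 member higher, Rps27l (0.34), and 1 lower, Rpl3 (-0.60, or -0.17 and no call with pseudogenes added), with 11.7% of genes called. Whether the M1-like against M2-like difference changed with mock transfection was tested by an interaction term, which 0 members passed by edgeR, with 5 at an unadjusted p under 0.05 and 1.13% of genes called. DESeq2 was not run on this term, and whether the difference of mock from untransfected cells itself differed between M0 and the other cells was not tested.

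Each siRNA pool lowered its target. Myc had 19.6, 22.3 and 18.5 CPM with the negative pool, 8.24, 8.90 and 5.83 CPM with the Myc pool and 8.58, 8.04 and 7.30 CPM in iM1 cells. E2f1 went from 20.9, 17.3 and 22.0 CPM to 4.88, 5.94 and 4.34 CPM, Pparg from 123, 138 and 130 CPM to 31.6, 29.1 and 24.97 CPM, and Stat6 from 286, 298 and 297 CPM to 99.2, 74.97 and 66.4 CPM under their own pools. In iM1 cells E2f1 had 11.9, 11.9 and 12.6 CPM, Pparg 39.0, 38.1 and 33.5 CPM and Stat6 165, 168 and 142 CPM. None of the targeted groups overlapped with the negative pool.

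After Myc knockdown more ribosomal protein mRNAs fell than rose, by a margin that depended on how copies were counted and libraries scaled. Against the negative siRNA pool, 24 of 84 members fell and 2 rose on own rows, with 15.6% of all genes lower and 13.9% higher, and the median was -0.19. With pseudogenes added 52 fell and 1 rose, with 15.9% of genes lower and 14.0% higher, and the median was -0.35. Scaled by total counts in place of TMM, every difference would be 0.13 higher on the log2 scale, which gives a median of -0.058 on own rows (37 members above 0 and 47 below) and 12 members above 0 and 72 below with pseudogenes added. With pseudogenes added, all Myc knockdown values of 61 members lay below all negative pool values. Of the members with at least 80% of their reads on their own row, a set that again includes Rps27, 11 of 25 fell on own rows and 1 rose (median -0.30). Without Myc knockdown library 3, 15 members fell on own rows and 31 with pseudogenes added. The members' share of reads on own rows was 0.670%, 0.642% and 0.599% with the negative pool and 0.583%, 0.605% and 0.528% with the Myc pool, and these overlapped. With pseudogenes the share was 1.89%, 1.85% and 1.71% with the negative pool and 1.62%, 1.65% and 1.49% with the Myc pool, and these did not overlap.

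Among members read mainly on their own row, Rps21, a small subunit protein, had 189, 219 and 196 CPM with the negative pool and 131, 130 and 127 CPM with the Myc pool (log2 fold change -0.64, SE 0.12, adjusted p = 8.51e-05). Rps9 had 671, 635 and 602 CPM and then 498, 477 and 446 CPM (-0.43, SE 0.07, adjusted p = 2.78e-05). Rplp1 of the P stalk had 69.5, 62.6 and 63.7 CPM and then 45.9, 40.1 and 33.0 CPM (-0.71, SE 0.17). Rplp2 (0.09) did not pass. Rplp0, with only 22.4% of its reads on its own row, fell by 0.54 there. In Rps21, Rps9 and Rplp1 all Myc pool values lay below all negative pool values.

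Rpl10a fell by 0.49 on its own row and by 0.72 with pseudogenes, from 322, 315 and 303 CPM to 201, 196 and 173 CPM. Rpl39, which lines the exit tunnel, fell by 0.74 on a row of 3.54 ± 0.351 CPM and by 0.65 with pseudogenes (134 ± 11.8 to 85.4 ± 5.83 CPM, SD, n = 3). Rpl5 (-0.47) and Rpl11 (-0.25) passed with pseudogenes added only, and Rps6 passed on its own row only (-0.29). Rps19bp1, the symbol match that is no ribosomal protein, rose from 28.8, 31.6 and 29.8 to 36.3, 41.6 and 45.4 CPM (0.45). Rpl28 rose by 0.58 on a row of 4.44 ± 0.358 CPM (SD, n = 3) and was at -0.23 with pseudogenes added.

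In iM1 macrophages, with all 4 factors targeted, more members fell than rose too. Against the same negative pool libraries, 17 members fell and 3 rose on own rows (13.9% and 12.5% of genes, median -0.16), and 45 fell and 3 rose with pseudogenes added (14.1% and 12.5%, median -0.32). Scaled by total counts, the own-row median was -0.031 with 36 members above 0 and 48 below, and 12 lay above and 72 below with pseudogenes added. Without iM1 library 3, 30 members passed with pseudogenes added, beside 48 with all libraries. Rplp1 went from 69.5, 62.6 and 63.7 to 32.9, 36.9 and 41.2 CPM (-0.82, SE 0.17, adjusted p = 5.79e-04). Rpl10a fell by 0.69 on its own row and 0.72 with pseudogenes, and Rps24 by 0.69 and 0.45. Rps20, Rps21 and Rps9 fell by 0.53, 0.58 and 0.38.

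The 3 members that rose in iM1 on own rows were Rpl28 (0.54, at -0.23 with pseudogenes added), Rps19bp1 (0.35) and Rpl3l. Rpl3l, the striated muscle copy of Rpl3, had 0, 0.200 and 0.114 CPM with the negative pool and 0.254, 0.761 and 0.791 CPM in iM1 libraries, so its fitted change rests on a handful of reads. Rpl36al rose by 0.26 with pseudogenes added.

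Tested directly against each other, iM1 and Myc knockdown did not differ in any of 84 members by edgeR or by DESeq2, with 1 member at an unadjusted p under 0.05 and 0.0494% of all genes called. The median difference was -0.003. Rpl10a with pseudogenes, for example, was at 195, 206 and 171 CPM in iM1 and at 201, 196 and 173 CPM after Myc knockdown. The differences of Rps21 (0.06, SE 0.12) and Rplp1 (-0.10, SE 0.17) on own rows show how closely such a comparison can be read.

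**Figure D5:**
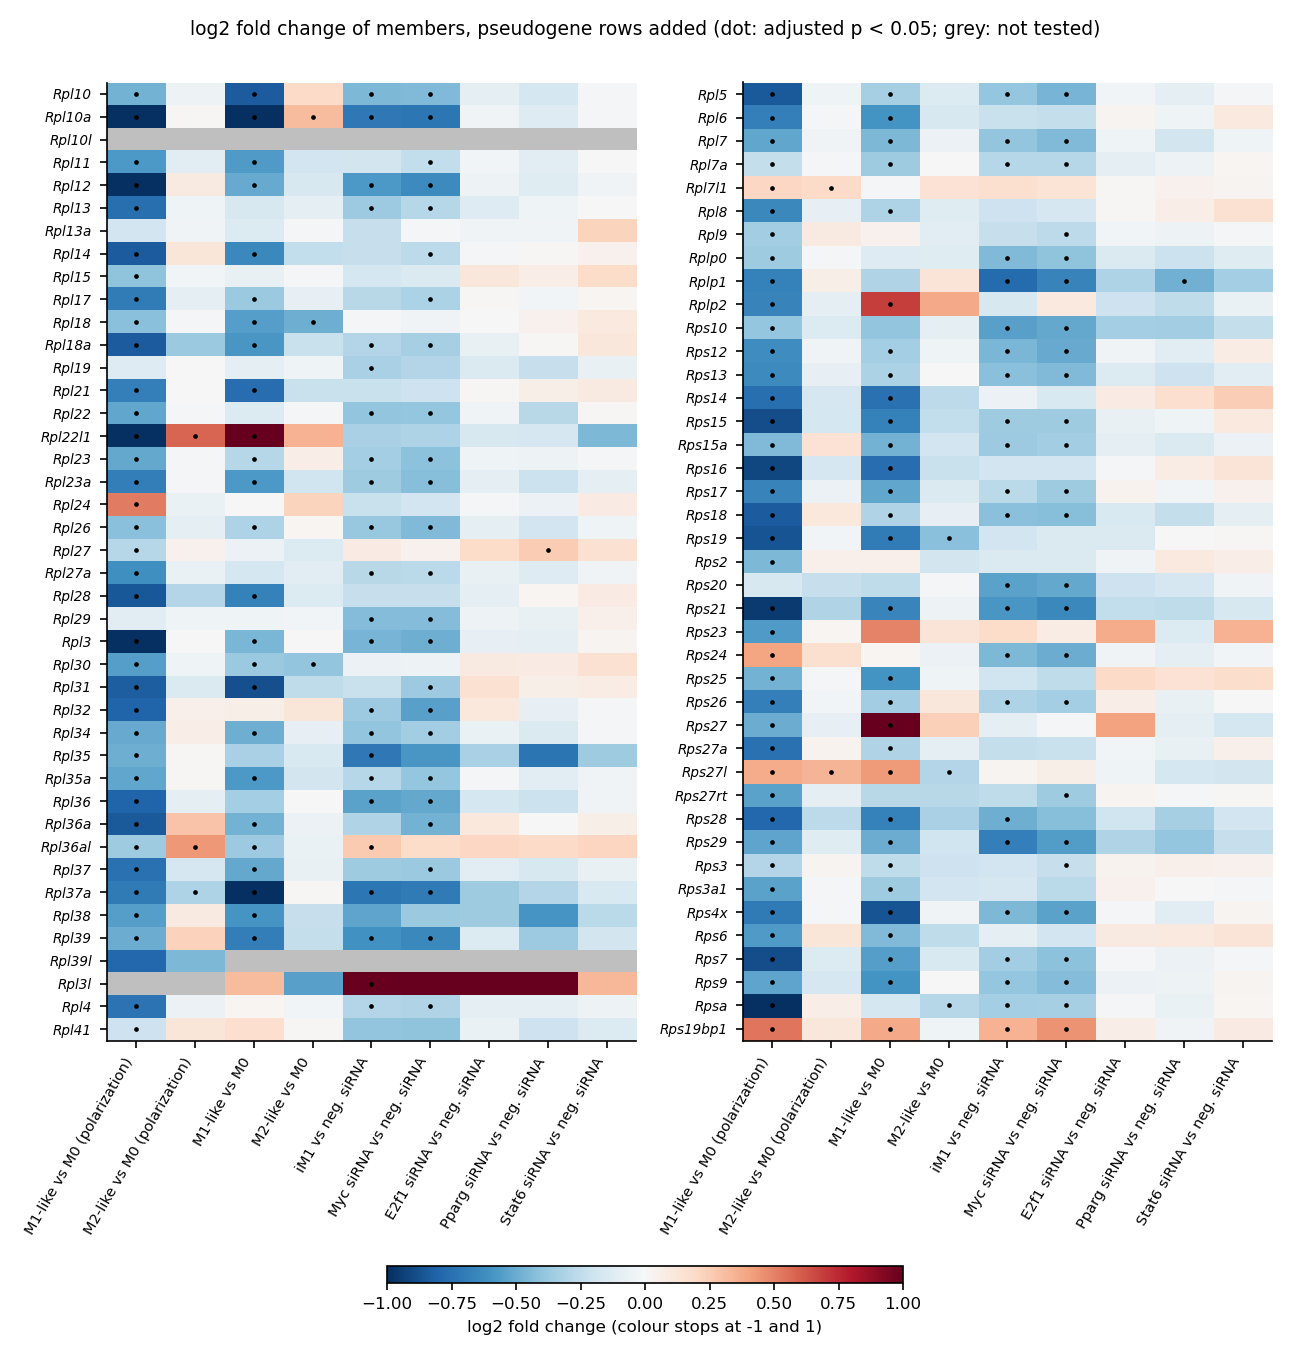
log2 fold change of the members reported here with pseudogene rows added (rows, in alphabetical order with Rps19bp1 last) in 9 comparisons (columns), blue for lower and red for higher, with a dot where adjusted p was under 0.05 and grey where not tested. The M1-like against M0 columns, iM1 and Myc siRNA are mostly blue with 74, 53, 45 and 52 members lower over all members tested, and the E2f1, Pparg and Stat6 siRNA columns are pale with at most 1 member called in either direction.

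The other single knockdowns gave few or no calls, as the heat map of members shows. E2f1, Pparg and Stat6 knockdown gave 0 members by edgeR and 0 by DESeq2, with 2, 9 and 2 members at an unadjusted p under 0.05, while 0.910%, 5.74% and 1.51% of all genes were called. The medians were -0.03, -0.04 and 0.02. With pseudogenes added, Pparg knockdown had 1 member higher, Rpl27, and 1 lower, Rplp1. Rpl10a with pseudogenes averaged 306 CPM after E2f1, 287 CPM after Pparg and 309 CPM after Stat6 knockdown, beside 314 CPM with the negative pool and 190 CPM after Myc knockdown. The comparisons share the negative pool libraries, and the difference between Myc knockdown and these 3 knockdowns was not tested.

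The other lists were counted in the knockdowns too, on own rows, beside 15.6% of all genes lower and 13.9% higher after Myc knockdown and 13.9% lower and 12.5% higher in iM1 cells. After Myc knockdown 8 of 22 translation factors and other TOP mRNAs fell and 0 rose (median -0.23), 7 of 22 assembly and rRNA synthesis factors rose and 0 fell (median 0.11), and 25 of 76 mitochondrial ribosomal protein genes rose and 1 fell (median 0.19). In iM1 cells the counts were 0 and 7, 5 and 0, and 22 and 2 (higher and lower, in the same order). Eef1a1 had 1387 ± 52.4 CPM with the negative pool, 1089 ± 85.1 CPM after Myc knockdown and 1135 ± 69.1 CPM in iM1 cells (SD, n = 3). In untransfected M1-like against M0 cells 48 mitochondrial ribosomal protein genes rose and 6 fell (median 0.30), with 29.0% of all genes higher and 28.7% lower. Between mock M1-like and mock M0 cells the other lists were mixed. Nop56 (0.33), Wdr12 (0.43), Rrp9 (0.48), Nolc1 (0.30), Polr1c (0.49) and Rrn3 (0.54) were higher, and Bop1 (-0.28) and Ubtf (-0.92) lower. Of the TOP list Eef1g, Eif2s3x, Pabpc1, Npm1, Hnrnpa1 and Gas5 were higher. Eef1a1, Eef1d, Eef2, Eif3a, Eif3h, Eif3k, Eif4b and Tpt1 were lower.

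As the gene by which the study normalized its qPCR, Rpl19, a large subunit protein, was among the steadier members at 24 h and less so in the reprogramming experiment. Over the 3 polarization conditions its mean ran from 70.1 CPM (M1-like) to 77.1 CPM (M0), a ratio of 1.10, with the 2nd lowest coefficient of variation among 83 members. Over the 12 reprogramming conditions its own row ran from 3.39 CPM (M0) to 5.08 CPM (negative pool), a ratio of 1.499. Counted from the steadiest member, it ranked 14 of 79 by the coefficient of variation and 32 of 79 by the ratio. With pseudogenes added it ran from 231 to 291 CPM, a ratio of 1.26, and ranked 5 of 83 by either measure. On that count it was at 303, 297 and 272 CPM with the negative pool and at 214, 230 and 253 CPM in iM1 libraries (log2 fold change -0.33, SE 0.12, adjusted p = 0.0377).

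Promoters of the members carry motifs that the choice of members did not use. Windows from 250 bases before to 50 after a start (RefSeq, GRCm38.p6) were found for 66 members, with 78 starts. The motif CCGGAAG, read on either strand, was in 34.6% of these windows and in 8.86% of all 32851. The motif CACGTG, the E-box that MYC with MAX can bind, was in 10.3% and 7.15%. The TOP-like run CTTTCC on the plus strand, from 10 bases before to 20 after the start, was in 14.1% and 1.28%. The 100 bases before the start of Rpl19, which has both CCGGAAG (here as CTTCCGG) and CACGTG, and of Rps21, which has CCGGAAG at 2 places, are shown with the motifs in capitals.
Rpl19 promoter: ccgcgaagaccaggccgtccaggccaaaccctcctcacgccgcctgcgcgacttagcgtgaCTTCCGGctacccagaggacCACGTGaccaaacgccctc
Rps21 promoter: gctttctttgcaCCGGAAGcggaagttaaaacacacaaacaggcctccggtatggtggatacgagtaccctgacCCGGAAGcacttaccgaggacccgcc
These lie at chr11:98026610-98026709 and chr2:180257279-180257378, both on the plus strand. After Myc knockdown, with pseudogenes added, 3 of 6 members with CACGTG and 34 of 58 without it fell, with medians of -0.27 and -0.34. For CCGGAAG the counts were 13 of 25 with it (median -0.34) and 24 of 39 without (median -0.31). A match is a description of the letters and not of a bound site.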

How the data were processed

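RNA-seq counts per gene were used as deposited. Per the labels' processing notes the authors trimmed reads with Trimmomatic, aligned them to mm10 with TopHat2 and made the counts with featureCounts. How reads with several placements were counted is not given in the sources used here. Gene symbols and types came from GENCODE M21. The 2 libraries of each mouse in the polarization experiment were summed.

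Each experiment was fitted in 1 model with the quasi-likelihood test of edgeR 4.0.16 (R 4.3.3), with TMM scaling, filterByExpr (minimum count 10, minimum total count 15), 1 coefficient per condition, two-sided tests and Benjamini-Hochberg adjustment over all genes tested, at a threshold of 0.05. Printed p-values come from these fits. CPM were TMM scaled except where stated, shares of reads were not, and the SE is the fold change divided by the root of F. Depth limits the members of few reads, such as Rpl3l. The members and lists were chosen with earlier results of these data known. Named were members with known roles, paralogs, the highest and lowest per kilobase and, per comparison, up to 3 largest increases and decreases among calls.

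Pseudogene transcripts were assigned to members with BLAST 2.17.0 (best hit on the plus strand, at least 85% identity over at least 60% of the length) and added to the gene before a second fit, an alternative added after the data had been seen. DESeq2 1.42.0, other size factors, no filter, a replicate block, another reference group and leaving out each sample were further alternatives. The fits were tested on simulated data. In the polarization experiment the mouse number marks 1 animal across conditions. Deviations from the group means correlated with a median r of 0.318 between samples of the same mouse (-0.0252 to 0.485) and -0.164 between different mice, over 10567 genes. Some members and a stretch of sequence are not reported here. Figures were drawn with matplotlib 3.10.9.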

Additional observations from a re-analysis of the deposited data

Results flagged for a closer look

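On own gene rows, 27 members had all M1-like samples below all M0 samples in the polarization experiment and all M1-like libraries above all M0 libraries in the reprogramming experiment. The difference between the experiments was not tested. They also differ in read length and layout, which cannot be told apart from any other difference between them. With pseudogene rows added, 4 members kept this opposite order, Rpl22l1, Rplp2, Rps23 and Rps27. Of these, Rps23 did not pass in the reprogramming experiment on either count. Rps27 kept it without its copy Rps27rt. The pair summed had 531, 523 and 576 CPM in M0 and 519, 382 and 454 CPM in M1-like libraries of that experiment.

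The log2 fold changes of M1-like against M0, first in the polarization and then in the reprogramming experiment, were as follows for members of the large subunit: Rpl12 (-0.9996 and 1.08), Rpl13 (-0.68 and 0.87), Rpl19 (-0.14 and 0.42), Rpl22l1 (-1.04 and 1.32), Rpl28 (-0.78 and 0.60), Rpl30 (-0.55 and 0.60), Rpl34 (-0.47 and 1.96), Rpl35 (-0.51 and 1.41), Rpl35a (-0.46 and 1.57), Rpl36 (-0.71 and 1.40), Rpl36a (-0.81 and 1.01), Rpl37 (-0.69 and 1.80), Rpl38 (-0.53 and 1.28), Rpl5 (-0.78 and 0.47), Rpl7a (-0.23 and 1.42), Rpl9 (-0.32 and 0.98) and Rplp2 (-0.62 and 0.68). Among members of the small subunit they were Rps10 (-0.35 and 0.47), Rps12 (-0.62 and 1.57), Rps13 (-0.59 and 0.98), Rps15a (-0.39 and 0.62), Rps18 (-0.81 and 0.93), Rps23 (-0.51 and 0.47), Rps27 (-0.46 and 1.60), Rps6 (-0.51 and 0.20) and Rps7 (-0.86 and 1.41). The calls behind them differed, since Rpl19 passed in neither experiment, and Rps23 and Rps6 did not pass in the reprogramming experiment.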

How the results depend on the processing

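Adding pseudogene rows to their genes moved the most calls. Members higher and lower were then 5 and 53 in untransfected M1-like against M0, 5 and 40 against M2-like, 8 and 36 in mock M1-like against mock M0 and 7 and 47 against mock M2-like. In mock against untransfected M0, 11 were lower. In all, 48 members passed in iM1 (45 lower), 53 after Myc knockdown (52 lower) and 2 after Pparg knockdown. The medians became -0.36, -0.29, -0.22 and -0.29 for the M1-like comparisons in the same order, -0.088 for untransfected M2-like against M0, -0.18 for mock against untransfected M0, -0.32 for iM1 and -0.35 for Myc knockdown. Of 84 members, 34 changed sign in untransfected M1-like against M0 (20 of them called on own rows), 32 against M2-like, 32 in untransfected M2-like against M0, 34 and 31 in mock M1-like against mock M0 and mock M2-like, 31 in mock against untransfected M0, 13 in iM1 and 19 after Myc knockdown, and 0 in M1-like against M0 or M2-like at 24 h. Among the members followed one by one, those that changed sign in untransfected M1-like against M0 were Rpl11 (-0.57), Rpl34 (-0.49), Rpl36a (-0.47), Rpl37 (-0.51), Rpl5 (-0.33) and Rps6 (-0.44), and against M2-like Rpl34 (-0.40) and Rpl37 (-0.44). In M2-like against M0 they were Rpl9 (-0.10) and Rps15a (-0.19), in mock M1-like against mock M0 Rpl34 (-0.16) and Rps12 (-0.19), and against mock M2-like Rpl34 (-0.33) and Rps12 (-0.24). In mock against untransfected M0 they were Rpl35 (-0.047), Rpl38 (-0.39) and Rps15a (-0.31), in iM1 Rpl28 (-0.23), and after Myc knockdown Rpl11 (-0.25), Rpl28 (-0.23) and Rpl36a (-0.48).

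Scaling by total counts in place of TMM gave medians of -1.01 (M1-like against M0 at 24 h), -0.97 (M1-like against M2-like at 24 h), -0.074 (untransfected M2-like against M0), 0.27 (untransfected M1-like against M2-like), 0.28 (mock M1-like against mock M0), 0.26 (mock M1-like against mock M2-like), -0.13 (mock against untransfected M0), -0.031 (iM1) and -0.058 (Myc knockdown). Without the filter on low counts 1 member passed in mock M2-like against mock M0, 1 in mock against untransfected M2-like, 6 in the negative pool against mock M2-like, 2 after Pparg knockdown and 1 for the interaction. With mock M2-like as the reference, 1 passed after E2f1, 4 after Pparg and 1 after Stat6 knockdown. With RLE size factors and pseudogenes added, 1 passed in the negative pool against mock M2-like.

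With the replicate block and pseudogenes added, 9 members passed in M2-like against M0 at 24 h, 12 in untransfected M2-like against M0, 1 in mock M2-like against mock M0, 18 (all lower) in mock against untransfected M0 and 4 in the negative pool against mock M2-like. The block moved no other count of members by over 1.5 times. In the reprogramming experiment libraries share only a number, and their deviations correlated with a median r of 0.188 at the same number (-0.242 to 0.683) and -0.0840 at different numbers.

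Leaving out 1 sample at a time gave the following ranges on own rows: 2 to 7 in M2-like against M0 at 24 h, 4 to 7 in untransfected M2-like against M0, 17 to 22 higher in mock M1-like against mock M2-like (median 0.0031 to 0.11), 7 to 9 (1 to 2 lower) in mock against untransfected M0, 1 to 3 in the negative pool against mock, 16 to 25 (15 to 23 lower) after Myc knockdown and 0 to 1 after Pparg knockdown. With pseudogenes added they were 2 to 9 in M2-like against M0 at 24 h, 1 to 9 in untransfected M2-like against M0, 5 to 10 higher and 21 to 41 lower in mock M1-like against mock M0, 0 to 1 in mock M2-like against mock M0, 35 to 58 (4 to 8 higher, 27 to 54 lower) in mock M1-like against mock M2-like, 3 to 11 (2 to 11 lower) in mock against untransfected M0, 0 to 2 in the negative pool against mock, 30 to 45 in iM1, 33 to 50 (31 to 49 lower) after Myc knockdown and 0 to 3 after Pparg knockdown. The causes were not tested.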
